A study of Homo sapiens with 8 samples.

Results

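The transcripts described here are those of 57 genes whose symbols begin with SRSF, RBM, CELF or MBNL followed by a digit, or with HNRNP, and that carry a QKI7 peak in at least 1 of 4 peak lists. They are 57 of the 6520 genes named in these lists, and hold 455 of the 42083 peaks. All their peaks were used, whatever their strength. RNA immunoprecipitation sequencing (RIP-seq) had been done in HepG2-cas9 cells, a human liver cancer cell line that also makes the Cas9 nuclease. Every group shared the lentiviral 3 x Flag-QKI7 transgene, so the Flag antibody recovered an overexpressed, tagged protein in all of them. The 8 samples were a Flag IP and its input for the control guide sgNS and for the guide sgMETTL1, directed at METTL1, with 2 replicates of each guide. The guide-bearing cells had been kept by their GFP, and whether replicates came from separate cultures is not stated, so the p-values below speak of differences among these lists, whose spread may be technical. Each list reports peaks of 1 IP over its own input, so an IP and its input together make 1 value, and each guide has 2 lists. The design asks whether loss of METTL1 alters which transcripts QKI7 holds.

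QKI is a KH-domain RNA-binding protein that recognises short ACUAA-type elements, often in the last exon of mRNAs, and QKI7 is its isoform with a mainly cytoplasmic place. The genes described here encode other proteins that bind RNA. SR proteins (SRSF) and hnRNPs bind exons and introns of pre-mRNA and shift splice site choice, often in opposite ways. MBNL and CELF proteins are regulators of alternative splicing and mRNA turnover that act against each other in muscle. RBM is a naming stem for proteins with an RNA recognition motif, from core spliceosome parts to muscle splicing factors, and several act outside splicing. METTL1, with WDR4, is the methyltransferase that places 7-methylguanosine in tRNAs and has been linked to the same mark inside mRNAs.

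The lists held 11562 and 11038 peaks with sgNS and 10095 and 9388 with sgMETTL1, of which 124, 121, 106 and 104 belonged to the 57 genes. The fold of a peak is the listed IP over input. Where 4 values stand in a row, they are those of sgNS replicates 1 and 2 and then of sgMETTL1 replicates 1 and 2. Folds of the same list can be ranked, but no source states how 1 list is scaled against another, so guides were compared on ranks within lists. Many folds are whole multiples of a smallest step, which was 2.316 and 2.113 in the sgNS lists and 3.049 and 2.775 in the sgMETTL1 lists. Of all folds of at least 10, between 37.7 and 42.2% lay within a fold of 0.08 of a whole multiple, against 3.97 to 5.79% for a step 7% larger. Large multiples were not counted as whole. Each step was the value that made this share largest in its list, which favours it in this contrast. A fold made of few steps is coarse, and the step was larger in both sgMETTL1 lists. Read depths were not analysed here. METTL1 had no peak in any list, so the loss of the targeted gene could not be checked from these values. Of 10 hepatocyte markers 6 had a peak in some list (AFP, APOA1, TTR and TF had none), against 0 of 4 endothelial, 1 of 5 fibroblast and 2 of 4 blood markers; a missing peak says nothing of the level of an mRNA.

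Membership was uneven between families. All 3 protein-coding MBNL genes of the RefSeq annotation were listed, as were 11 of 12 SRSF genes (SRSF9 was not), 20 of 26 HNRNP genes and 22 of 39 RBM genes. Of 6 CELF genes, CELF1 was listed. HNRNPA1, which encodes one of the most abundant hnRNPs, had no peak under its name, while its near copy HNRNPA1L2 was listed once, with a fold of 11.3 in the second sgNS list. Reads of near-identical genes may be divided between their names, and the same caution holds for RBM4 with RBM4B and SRSF8 with SRSF2. The peaks of HNRNPH2 lie at the same places as peaks listed for the read-through gene RPL36A-HNRNPH2, and cannot be assigned between them.

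Presence in both replicates was counted first. Both sgNS lists named 49 of the 57 genes (86.0%, against 76.3% of all 6520 genes), and both sgMETTL1 lists named 46 (80.7%, against 67.5%). All 4 lists named 45 of them (78.9%, against 63.7%). Another 4 genes (HNRNPA1L2, RBM38, RBM48 and RBM6) stood in a single list, and HNRNPD, SRSF1 and SRSF12 are described further on. The remaining 5 were irregular: HNRNPAB and RBM18 were in the first replicate of each guide, HNRNPLL in the first of sgNS and the second of sgMETTL1, HNRNPUL2 in all but the second of sgNS and RBM3 in all but the second of sgMETTL1. The median strongest fold was 5.88 and 8.18 in the sgNS lists and 5.62 and 6.80 in the sgMETTL1 lists, beside 7.52, 7.04, 6.86 and 6.48 for all genes. Families were spread apart on this scale. As a percentile among all genes of a list, where 0 is the strongest, the median of the 3 MBNL genes was 13.8 to 17 over the 4 lists, that of the RBM genes 39.8 to 45.6, that of the HNRNP genes 59.2 to 70.7 and that of the SRSF genes 69.9 to 78.8. These medians describe the lists and were not tested.

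**Figure D1:**
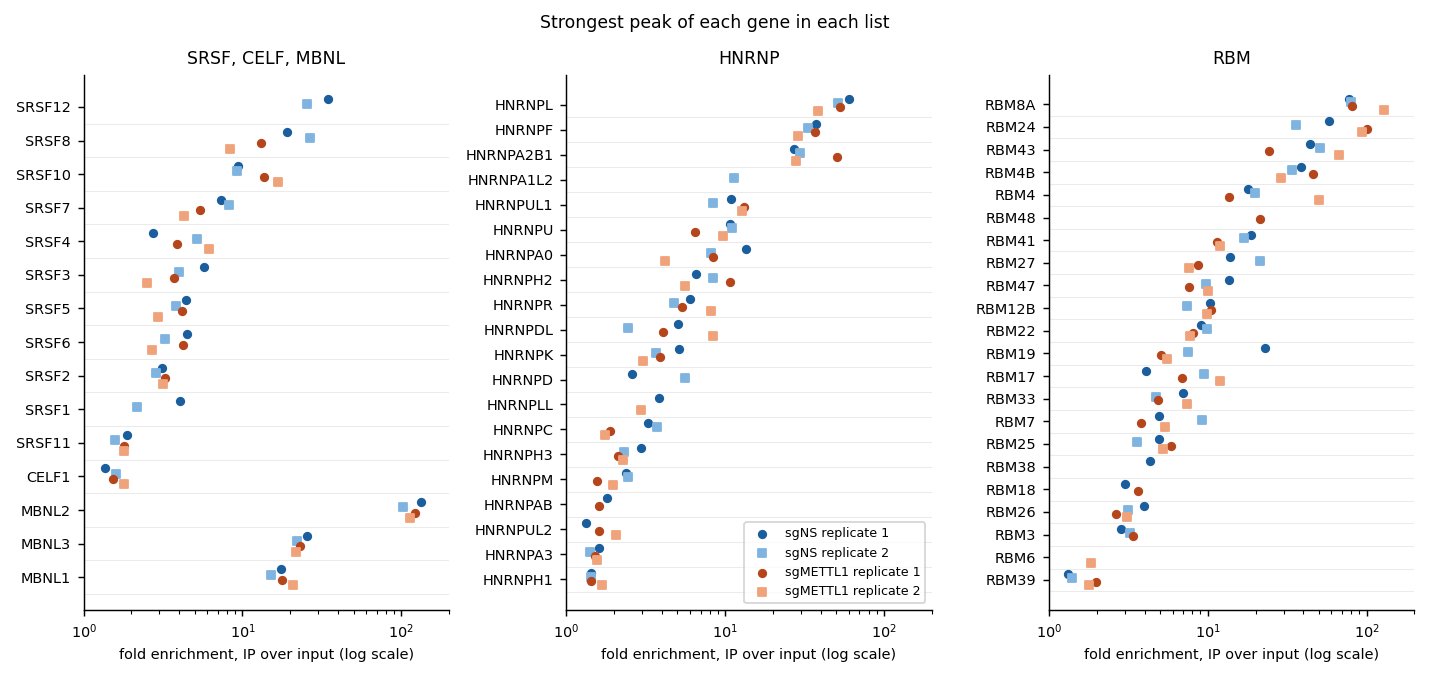
Fold of the strongest peak (IP over input, log axis) of each of the 57 genes in each of the 4 lists, by family; a gene without a symbol for a list had no peak there. MBNL2 (102 to 133) and RBM8A (77.5 to 129) lie farthest right, and most SRSF genes lie below 10. SRSF12, SRSF1 and HNRNPD have symbols of both sgNS lists and none of sgMETTL1.

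MBNL2, a muscleblind splicing regulator, had the best mean rank of the 57 genes. Its strongest peak had folds of 133 and 102 in the sgNS lists and 122 and 113 in the sgMETTL1 lists, within the top 1.1% of genes of each list. The guides overlapped. This peak covers 1258 bases in 3 lists and 869 in the second sgMETTL1 list, at the very 3′ end of the gene (site at GRCh38 chr13:97392833-97394120, plus strand), and a weaker site that joins up to 4 exon blocks upstream of it had folds of 6.37, 4.87, 4.03 and 3.87, lower in both sgMETTL1 lists. MBNL3, its X-linked relative, had 6 sites, and the strongest, with a strongest peak of 2996 to 4493 bases at chrX:132371981-132376473 (minus strand), had folds of 25.6 and 22.0 under sgNS, and 22.9 and 21.8 under sgMETTL1. A site over up to 5 exon blocks further upstream in MBNL3 was nearly as strong, at 22.0, 18.6, 18.2 and 16.4, and its ranks overlapped between the guides (score difference -0.013, SE 0.18). MBNL1, the best known member in muscle, reached 17.5 and 15.2 under sgNS, and 17.8 and 20.8 under sgMETTL1. The first place changed between neighbouring sites near its 3′ end, with folds of 14.2, 15.2, 17.8 and 15.7 at site 2 and of 17.5, 12.8, 10.7 and 20.8 at site 3 (sites are numbered from 5′ to 3′). Of the 11 MBNL sites, 9 were in all 4 lists (81.8%, against 41.3% of all sites). In both lists of 1 guide alone there were 0, against 7.42% of all sites for sgNS and 1.21% for sgMETTL1. With 11 sites, 0 is near both of these shares. CELF1, which binds GU-rich elements and acts against MBNL proteins, lay at the other end of the range. Its strongest folds were 1.36 and 1.6 under sgNS, and 1.53 and 1.80 under sgMETTL1, at the 95.8th to 99.8th percentile, and its 3 sites moved from list to list with 0 of them in all 4.

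RBM genes made up 5 of the 12 genes with the best mean rank, beside 3 MBNL, 3 HNRNP and 1 SRSF gene. The 45 genes of all 4 lists, from which these 12 come, include 17 RBM, 3 MBNL, 15 HNRNP and 9 SRSF genes. The RBM share among the 12 is thus near its share among the 45. RBM8A encodes Y14, a core part of the exon junction complex, and its strongest peak had folds of 77.5 and 79.8 under sgNS, and 81.3 and 129 under sgMETTL1. The sgMETTL1 folds were the higher ones, but as percentiles among all genes (1.55 and 1.74 against 2.31 and 0.53) the guides overlapped. RBM24, a splicing regulator of heart and skeletal muscle, had 58.2 and 35.7 under sgNS, and 101 and 93.0 under sgMETTL1. Its guides did not overlap in fold, and the site lies 3 bases from the annotated 3′ end (chr6:17292978-17293868, plus strand). RBM4B had 38.4, 33.7, 45.7 and 29.1, and its neighbour RBM4 had 18.0, 19.9, 13.7 and 50.0, where the last value, of the second sgMETTL1 list, is 18 whole steps. The RBM43 folds of 44.0, 50.7, 24.4 and 66.6 were 19, 24, 8 and 24 whole steps of their lists, with log10 p-values of -8.76, -10.6, -4.03 and -12.6. HNRNPF, with lower folds in 3 of the 4 lists, had far stronger log10 p-values of -2190, -1810, -1000 and -1120, so that rank by fold and rank by p differ for RBM43. The HNRNPF fold of the first sgMETTL1 list is 12 whole steps too, so a whole number of steps alone does not mark a weak p. RBM41, linked to the minor spliceosome, also kept a fold of at least 10 in every list (18.7, 16.8, 11.5 and 11.9). Several RBM genes lay in the middle range. RBM27, linked to the nuclear RNA exosome, had 13.9, 21.3, 8.69 and 7.66, with both sgMETTL1 folds below both sgNS folds. RBM19, needed for ribosome production, had 23.1, 7.55, 5.08 and 5.55, and its first value, 10 whole steps, stood far above the rest. RBM47, which can take part in APOBEC1 editing of APOB mRNA, had 13.6, 9.69, 7.59 and 10.1, with overlap. RBM22, a spliceosome protein that contacts the U6 snRNA, had 9.05, 9.86, 8.07 and 7.68 at its single site. RBM17, or SPF45, a factor of 3′ splice site choice, varied more within a guide than between guides, at 4.10, 9.51, 6.86 and 11.9. RBM7, a part of the nuclear exosome targeting complex, had 4.94, 9.16, 3.81 and 5.40, with overlap. RBM3, a cold-shock protein gene, had 2.83 and 3.22 and then 3.39 in the first sgMETTL1 list. Of the 45 genes of all 4 lists, 12 had a strongest fold of at least 10 in each list, and 5 (CELF1, HNRNPA3, HNRNPH1, RBM39 and SRSF11) stayed under 2 in each. The same counts over all genes were not made.

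Among hnRNP genes the strongest was HNRNPL, whose protein binds CA-rich RNA. HNRNPL had a single site, of up to 3 exon blocks and ending 18 bases from the 3′ end, with folds of 60.0 and 51.0 under sgNS, and 52.7 and 38.5 under sgMETTL1. HNRNPF, whose protein binds G-tracts, also had a single site, with folds of 37.5, 33.2, 36.6 and 28.8. Its G-tract binding relatives HNRNPH1 and HNRNPH3 were weak, at 1.43 to 1.69 and 2.13 to 2.95, while HNRNPH2 had 6.52, 8.35, 10.7 and 5.55 at a place shared with the read-through gene. HNRNPA2B1, known for sorting RNAs into vesicles and transport granules, had 27.0 and 29.8 under sgNS, and 50.7 and 28.1 under sgMETTL1, at a site of up to 4 exon blocks (chr7:26191009-26195859, minus strand) that ends 1082 bases before the 3′ end. The first sgMETTL1 list stood apart from the other 3 there. HNRNPA0 had 13.6, 8.14, 8.38 and 4.16, and its 2 sites of all 4 lists lie at 19.4 and 32% of the span. The value of 8.14 is of site 1 and the others are of site 3. Site 1 had 7.6, 8.14, 4.29 and 2.67, without overlap, and site 3 had 13.6, 5.07, 8.38 and 4.16, with overlap. HNRNPUL1, at a site 4 bases from the 3′ end, had 10.9, 8.44, 13.2 and 12.7, with both sgMETTL1 folds above both sgNS folds. HNRNPR had 6.03, 4.74, 5.36 and 8.14, which overlap as folds and as percentiles among all genes (58.1, 66.4, 59.2 and 42.6). When the genes of all 4 lists alone are ranked, both sgMETTL1 lists place HNRNPR higher. HNRNPK, which binds C-rich RNA, had 5.09, 3.69, 3.88 and 3.04, with overlap in fold and rank. HNRNPM had 2.37 and 2.43 and then 1.56 and 1.97, a low fold with no overlap between guides. HNRNPU, which encodes the nuclear scaffold protein SAF-A, had the most sites, 8, and its strongest one, 3 bases from the 3′ end, had folds of 10.8, 11, 6.48 and 9.72.

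Among the SR protein genes SRSF12, a close relative of SRSF10, had the highest fold of the first sgNS list (34.7) and no peak with sgMETTL1. The best mean rank over all 4 lists was that of SRSF8, which resembles SRSF2, with 19.0 and 26.8 under sgNS, and 13.0 and 8.33 under sgMETTL1, at a site ending 31 bases from the 3′ end. SRSF10, which can repress splicing when dephosphorylated, had 7 sites and strongest folds of 9.37, 9.30, 13.7 and 16.7. In the second sgMETTL1 list the SRSF8 fold of 8.33 is 3 whole steps and the SRSF10 fold of 16.7 is 6. The strongest SRSF10 peak was not at 1 place: it was site 7 in both first replicates and site 6 in both second replicates. SRSF7 followed with 7.31, 8.22, 5.40 and 4.26. Several classical SR protein genes had lower folds: SRSF2 had 2.87 to 3.24, SRSF3 2.52 to 5.72, SRSF5 2.92 to 4.44 and SRSF6 2.71 to 4.47 over the 4 lists.

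The 3′ end held a smaller share of these peaks than of all peaks. Of 455 peaks 244 (53.6%) had their midpoint in the last 10% of the gene's span, against 74.5% of the peaks of all genes that could be placed. SRSF peaks had the lowest share, 35.6%, followed by RBM with 50.9% and HNRNP with 56.4%, while 90.9% of MBNL peaks and 5 of 5 CELF1 peaks were there. The span is the distance between the annotated ends, introns included, and the 57 genes have a median span of 18209 bases against 43860 for all genes. The shares were neither adjusted for span length nor tested. A peak could also run over several exons: 15.6% of peaks had more than 1 exon block, against 9.26% of all peaks, with 20.0% for HNRNP and 27.3% for MBNL. At the level of sites, 142 places were counted when overlapping peaks of a gene were joined, and 19 of them had more than 1 block in some list. HNRNPA3 had a site of up to 6 blocks and MBNL3 one of up to 5. Both sgNS lists held 96 of the 142 sites (67.6%, against 58.4% of all sites), both sgMETTL1 lists held 75 (52.8%, against 44.6%), and all 4 lists held 67 (47.2%, against 41.3%). Of these 67 sites 36 lay in the last 10% of the span and 7 before its middle (HNRNPA0 sites 1 and 3, HNRNPA3 site 1, HNRNPU site 1, RBM26 site 1, RBM39 site 1 and SRSF8 site 1). HNRNPU site 1 lies at 4.64% of the span, close to the 5′ end, and RBM39 site 1 at 14.3%.

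**Figure D2:**
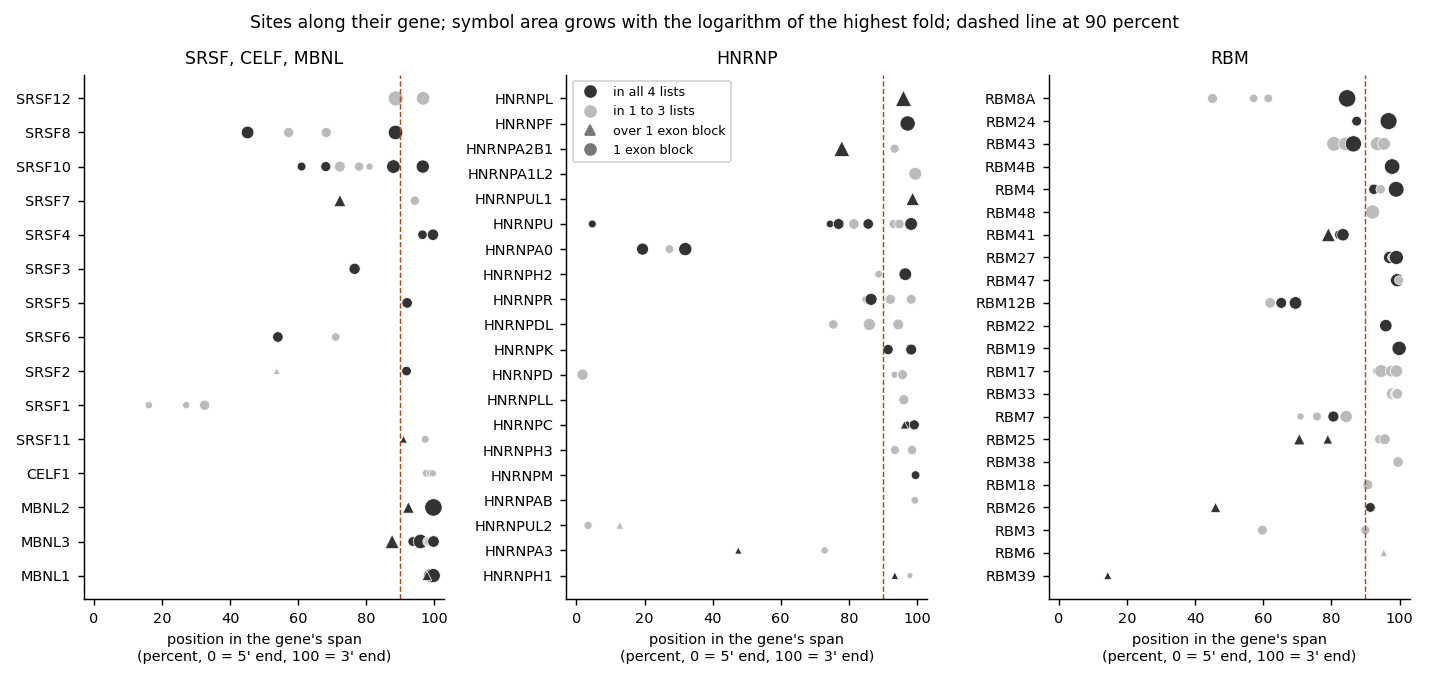
Place of each of the 142 sites in the span of its gene (percent, from the 5′ to the 3′ end), with 1 line per gene; dark symbols are sites in all 4 lists, triangles are sites with more than 1 exon block, and symbol area grows with the logarithm of the highest fold. MBNL sites crowd at the right edge, while SRSF1, HNRNPA0 and RBM39 have sites far to the left of the dashed line at 90%.

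Several transcripts held many separate sites. Of the 57 genes 22 (38.6%) had 3 or more, against 30% of all genes. HNRNPU with 8, SRSF10 with 7, MBNL3 with 6 and RBM43 with 5 led, and 16 had 1. Sites in a gene were unequal. In HNRNPU, 7 of 8 sites lay at 74.5% of the span or beyond, and the folds of site 3 (4.93, 4.57, 3.81 and 4.71) were below those of site 8 in every list. In SRSF10 the 2 strongest sites lay at 88.0% and 96.6% of the span, and site 5 (1.54 and 1.44) was listed with sgNS alone. For 30 of the 45 genes in all 4 lists the strongest peak was at the same site each time, while for 15 it was not, among them MBNL1, SRSF10, HNRNPC and RBM25; 9 of the 30 have a single site. CELF1, HNRNPDL, HNRNPH3, RBM17 and RBM33 were named in all 4 lists without any site in all 4.

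A complete change of presence between the guides was seen for 3 genes. HNRNPD, SRSF1 and SRSF12 had peaks in both replicates of sgNS and in no list of sgMETTL1 (5.26% of the 57, against 4.63% of all genes), and 0 genes showed the reverse (against 1.52%). Both shares are near the background, and with 2 lists per guide an exact permutation test cannot give a p-value below 0.333. SRSF1, the founding SR protein, had 3 sites with sgNS, at 16.1, 27.1 and 32.5% of its annotated span. The SRSF1 folds were 4.06 and 2.17 at site 3 (chr17:58001188-58001606, minus strand), 1.67 and 1.40 at site 1 and 1.59 and 1.37 at site 2. HNRNPD, or AUF1, which binds AU-rich elements and speeds mRNA decay, had strongest folds of 2.59 and 5.63, the latter at a site that the second sgNS list alone holds. SRSF12 had folds of 34.7 and 25.4 at site 1 (chr6:89098208-89098687, minus strand), but these are 15 and 12 whole steps with log10 p-values of -6.76 and -4.97. Less binding, less of the transcript and fewer reads cannot be told apart for a missing peak, nor can fewer cells with the transcript and less of it per cell. The sgMETTL1 lists also hold fewer peaks in all, as given above. When only folds of at least 2 times the smallest of a list were kept, HNRNPC and HNRNPM joined HNRNPD and SRSF12, and SRSF1 left.

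Presence was also counted by site, since a gene can keep 1 place and lose another. Of 142 sites, 14 (9.86%) were seen in both replicates of sgNS and in no list of sgMETTL1, against 7.42% of all 14518 sites, and 2 (1.41%, against 1.21%) showed the reverse. The 14 sites belong to 11 genes, 8 of which have another site in a sgMETTL1 list. Most were weak: their folds ran from 1.31 to 34.7 with a median of 2.12, and their median log10 p was -5.58. SRSF genes held 6 of the 14 (3 in SRSF1 and 1 each in SRSF2, SRSF10 and SRSF12), HNRNP genes 5 and RBM genes 3. These are 21.4% of 28 SRSF sites, 11.1% of 45 HNRNP sites and 5.45% of 55 RBM sites, against 7.42% of all sites. The family shares rest on few sites and were not tested. RBM43 site 4 had folds of 18.5 and 6.34, and HNRNPA0 site 2, of 2.07 and 2.37, had log10 p-values of -12.4 and -18.5, the second being the strongest p among the 14. The 2 sites found with sgMETTL1 alone were RBM27 site 1 (2.23 and 2.90) and SRSF7 site 2 (2.92 and 2.90).

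Ranks of the strongest fold were compared over the 4150 genes in all 4 lists. The rank of each gene in each list was turned into a normal score, a value near 0 for the middle gene and near 2 for the top few percent. By limma with Benjamini-Hochberg adjustment, 0 of 4150 genes passed an adjusted p of 0.05 (0% called), and the smallest adjusted p was 0.221. At an unadjusted p of 0.05, 196 genes were lower (4.72%) and 212 higher (5.11%) with sgMETTL1. Of the 45 splicing and RNA-binding protein genes there, 0 were called, the smallest adjusted p was 0.325, and 1 was lower and 3 were higher at the unadjusted threshold. Their median difference was 0.065, beside -0.017 for all genes, with 18 below and 27 above 0, against 2166 and 1984 of all genes. With log2 folds, and also with the mean of all peaks, the split was 22 below and 23 above. On log2 folds the median difference was 0.012 for these genes, beside -0.24 for all genes. The ranks of the guides did not overlap for 8 genes that were lower (17.8%, against 22.7% of all) and for 12 that were higher (26.7%, against 20% of all).

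**Figure D3:**
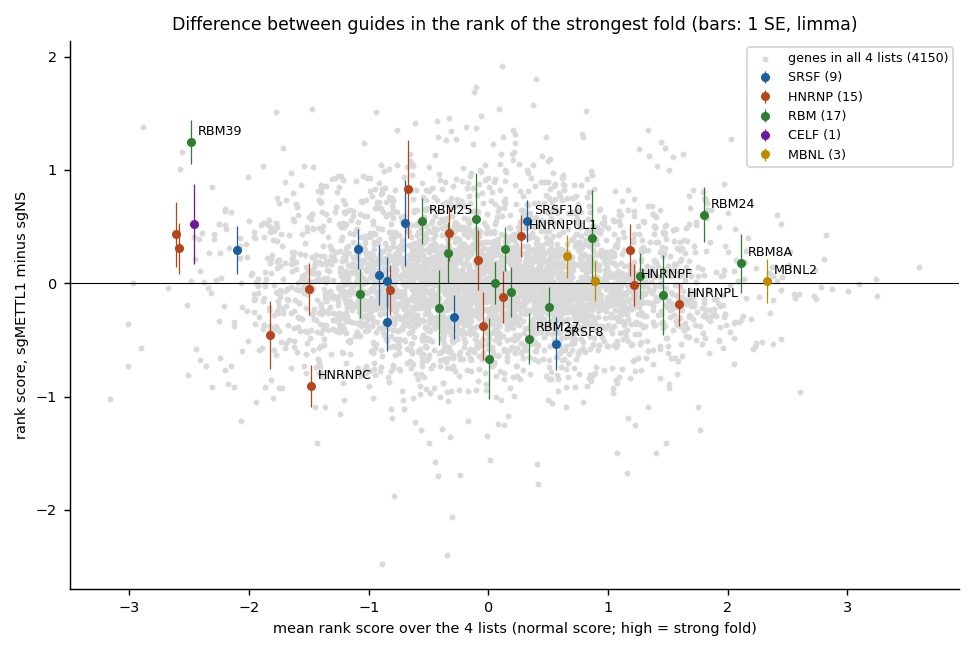
Difference in rank score between the guides (sgMETTL1 minus sgNS, mean of 2 lists each) against the mean rank score over the 4 lists, for the 4150 genes in all 4 lists (grey) and the 45 genes described here (coloured by family, bars of 1 SE from limma). RBM39 at 1.25 and HNRNPC at -0.91 lie farthest from 0, both at the weak end of the axis, and the strongest genes such as MBNL2 lie near 0.

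The smallest unadjusted p among the 45 genes belonged to RBM39, which encodes a U2AF-related splicing factor that aryl sulfonamide drugs degrade. RBM39 had folds of 1.32 and 1.39 under sgNS, and 1.98 and 1.79 under sgMETTL1, so that the guides did not overlap. Its score difference was 1.25 (SE 0.20, adjusted p 0.325 by limma, n = 2 lists per guide), between 1.00 and 1.39 over 6 alternatives with adjusted p-values of 0.283 to 0.591. Among all genes of a list RBM39 stood at percentiles of 99.9 and 99.5 in the sgNS lists and of 95.3 and 96.0 in the others, the weak end in each. HNRNPC, which binds uridine tracts, differed the other way, with folds of 3.27 and 3.75 under sgNS, and 1.89 and 1.76 under sgMETTL1. Its score difference was -0.91 (SE 0.19, adjusted p 0.352 by limma), and from -1.01 to -0.71 over 6 alternatives with adjusted p-values of 0.305 to 0.597. SRSF10 had a difference of 0.55 (SE 0.19, adjusted p 0.470 by limma), which was 0.018 when all its peaks were averaged. RBM25, which is associated with the U1 snRNP, had folds of 4.94 and 3.57 under sgNS, and 5.83 and 5.25 under sgMETTL1, and a difference of 0.55 (SE 0.21, adjusted p 0.499 by limma), which was 0.18 when all its peaks were averaged. The score of RBM24 differed by 0.60 (SE 0.24, adjusted p 0.516 by limma) and that of SRSF8 by -0.53 (SE 0.23, adjusted p 0.538 by limma). Both signs turned when all peaks of the gene were averaged, to -0.38 for RBM24 and 0.026 for SRSF8. None of these 6 genes passed the adjusted threshold under any alternative whose fit held it. RBM39 and HNRNPC left the fit when only folds of at least 2 times the smallest of a list were kept. Their ranges above also leave out log2 folds, which are on another scale. On log2 folds RBM39 differed by 0.47 and HNRNPC by -0.94 (adjusted p 0.476 and 0.345 by limma).

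The same comparison over 6003 sites in all 4 lists also gave 0 calls by limma (0% called), with a smallest adjusted p of 0.333, and 303 sites lower (5.05%) and 325 higher (5.41%) at an unadjusted p of 0.05. Of 67 sites of the splicing and RNA-binding protein genes 3 were lower and 5 higher at that threshold, and 0 were called. In sign, 31 were below and 36 above 0 (3118 and 2885 of all sites), which became 41 and 26 with log2 folds. On that scale the median difference was -0.13 for these sites, beside -0.22 for all sites. Ranks did not overlap between guides for 15 lower (22.4%, against 23.7% of all sites) and 16 higher sites (23.9%, against 20.3%). RBM39 site 1, of up to 4 exon blocks, had a difference of 1.38 (SE 0.21, adjusted p 0.333 by limma). HNRNPC site 3, at the 3′ end (chr14:21209196-21210151, minus strand), had folds of 3.27 and 3.75 under sgNS, and 1.89 and 1.58 under sgMETTL1, a difference of -1.06 (SE 0.22, adjusted p 0.396 by limma). HNRNPC site 1 had 1.83, 2.06, 1.53 and 1.39, a difference of -0.65 (SE 0.24, adjusted p 0.463 by limma) without overlap. HNRNPC site 2 had 1.69, 1.80, 1.45 and 1.76, with overlap and a score difference of -0.012 (SE 0.30). HNRNPA0 site 1 had 7.6, 8.14, 4.29 and 2.67, a difference of -0.78 (SE 0.26, adjusted p 0.425 by limma) without overlap. HNRNPU site 1 had 1.58 and 1.48 against 1.79 and 1.91, a difference of 0.81 (SE 0.19, adjusted p 0.396 by limma). At the strongest HNRNPU site, site 8, the folds were 10.8 and 11 against 6.48 and 9.72, and the ranks overlapped (difference -0.14, SE 0.22). SRSF11 site 1 had 1.56 and 1.58 against 1.78 and 1.79, HNRNPA3 site 1 had 1.37 and 1.41 against 1.52 and 1.56, and RBM25 site 1 had 4.50 and 3.57 against 5.83 and 5.25. Their score differences were 0.64, 0.68 and 0.58, with adjusted p-values by limma of 0.410, 0.422 and 0.425. HNRNPU site 1, SRSF11 site 1 and HNRNPA3 site 1 lay at the weak end, at percentiles of 92.8 to 99.8 among the 6003 sites. On log2 folds these differed by 0.27, 0.19 and 0.15 (adjusted p 0.596, 0.714 and 0.777 by limma). RBM25 site 1 differed by 0.46 on that scale (adjusted p 0.466 by limma). HNRNPA3 site 1 joins an upstream and a downstream place, bridged by a peak of the second sgMETTL1 list. The sgNS folds of 1.37 and 1.41 are of the downstream place, where the first sgMETTL1 list had 1.27. Its fold of 1.52 is of the upstream place, where sgNS had 1.27 and 1.22.

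**Figure D4:**
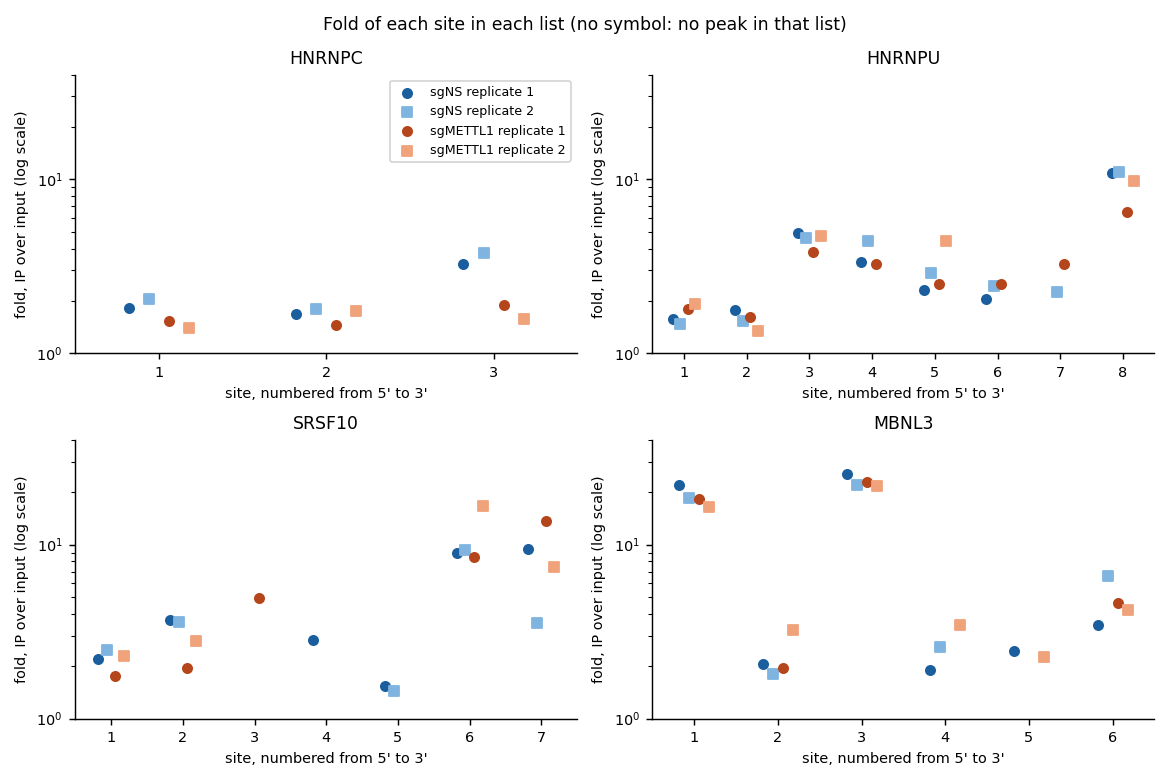
Fold (log axis) of each site of HNRNPC, HNRNPU, SRSF10 and MBNL3 in each list, with sites numbered from 5′ to 3′ and no symbol where a list has no peak. HNRNPC sites 1 and 3 have sgMETTL1 symbols below both sgNS symbols, HNRNPU site 1 has them above, SRSF10 changes its strongest site between replicates, and the guides overlap at MBNL3 site 3.

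P-values differed between the guides at most sites and widths at many, and these values stand beside the ranks above. Over the 67 sites the median of the exon bases covered was 506 and 480 under sgNS, and 421 and 420 under sgMETTL1, and the median log10 p was -45.5, -36.6, -21.1 and -18.5. The p was weaker in both sgMETTL1 lists than in either sgNS list at 48 of 67 sites (71.6%, against 76.2% of all 6003 sites), and the site was narrower at 29 (43.3%, against 49.1%). HNRNPC site 3 covered 956 and 867 bases with sgNS and 211 and 61 with sgMETTL1, and its log10 p was -34.6 and -31.5 against -5.40 and -3.45. The reverse was less common: 5 sites were wider in both sgMETTL1 lists (7.46%, against 4.0% of all). They were RBM39 site 1, HNRNPU site 1, SRSF11 site 1, HNRNPA3 site 1 and RBM25 site 1, the 5 sites with higher ranks named above. For HNRNPA3 site 1 the bases of its separate places were summed. Width, p and fold of a peak come from the same reads and are not independent. Of the 5 sites, RBM39 site 1, HNRNPU site 1 and SRSF11 site 1 also had stronger p-values in both sgMETTL1 lists (3 of 67, 4.48%, against 3.45% of all). For RBM39 the log10 p was -20.0 and -31.7 with sgNS against -81.0 and -65.6 with sgMETTL1, over 150 and 180 bases against 270 and 270. The number of peaks called and the fold step also differed between the guides, as given above, and their part in these values was not tested.

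A list of 73 splicing factors outside these families was read in the same way. Of these, 39 were in some list. Of the 39, 30 were in both sgNS lists (76.9%, against 76.3% of all genes), 30 in both sgMETTL1 lists (76.9%, against 67.5%) and 27 in all 4 (69.2%, against 63.7%), while PTBP1, the polypyrimidine tract repressor, was the 1 gene with sgNS peaks in both replicates and no sgMETTL1 peak (2.56%, against 4.63%). Among the 27, limma called 0, with 4 lower (14.8%, against 4.72% of all genes) and 1 higher (3.70%, against 5.11%) at an unadjusted p of 0.05. QKI had the best rank of the list, with folds of 78.0 and 68.0 under sgNS, and 109 and 107 under sgMETTL1. The transgene carries a QKI sequence too, and its part in these peaks was not tested. ELAVL1, or HuR, which stabilises AU-rich mRNAs, followed with 55.7, 116, 67.6 and 50.4. Further genes of the list were the SR protein kinase gene SRPK2 (18.7, 13.6, 15.2 and 5.90), the nuclear matrix gene MATR3 (15.7, 10.5, 7.96 and 7.40) and PRPF38B (8.65, 7.87, 6.97 and 8.33). Core spliceosome genes were sparse: U2AF1, U2AF2, PRPF8 and SNRPB were among the 34 factors with no peak in any list.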

How the data were processed

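RIP-seq of 8 samples (Flag IP and input, sgNS and sgMETTL1, 2 replicates) was analysed from 4 deposited peak lists, 1 per IP and input pair, per the labels. Per the labels' protocols, stranded libraries without ribosomal RNA were made from UV cross-linked, sonicated cells. Per the submitters' processing notes, STAR and GRCh38 were used; no peak caller, scaling or threshold is named in the sources used here. The fold of a peak is a ratio of IP over input as deposited by the authors. The p-value of each peak is as deposited by the authors and is 0 for 1744 peaks, so the base-10 logarithm of p was used. The logarithms of p and FDR, as deposited by the authors, were handled as a score, and the largest FDR was about 5%.

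Genes were matched by symbol to RefSeq (GRCh38.p14; 57 of 57 matched), and 99.8% of the peaks that could be placed lay in their gene's span. Peaks of 1 gene, chromosome and strand that shared at least 1 exon-block base formed a site, numbered from 5′ to 3′. Coordinates are 1-based. For each gene or site in all 4 lists, the rank of its strongest fold within a list was converted to a normal score, and sgMETTL1 minus sgNS was fitted with limma 3.58.1 in R 4.3.3 over all genes or sites (two-sided, Benjamini-Hochberg, adjusted p of 0.05). The fit and the joining of sites were tested on simulated data. Other steps used Python 3.11.15, pandas 2.3.3, numpy 2.4.6, scipy 1.17.1 and matplotlib 3.10.9. Alternatives were a fold of at least 2 times the smallest, equal numbers of top-ranked peaks, overlap in place of gene name, log2 folds, the mean of all peaks, peaks joined only where they share at least 0.5 of the shorter peak, the replicate number as a block, and leaving out each list. Counts by site in place of gene, and the site widths, were added after seeing the data.

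The genes and lists were chosen with earlier results of these data known. Genes were named by rule: the 12 best mean ranks, genes in both lists of 1 guide alone, the 6 smallest unadjusted p per fit, the strongest of each family, those with 5 or more sites, QKI, METTL1 and up to 6 other splicing factors. Others were named after their values were seen, to fill out a family or a count. Sequences of the sites were not used here. The values of 1 of these 6 splicing factors are not reported here.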

Additional observations from a re-analysis of the deposited data

How the results depend on the processing

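All counts of calls by limma (0 of 45 genes and 0 of 67 sites) stayed at 0 under every alternative that was run. The fits held 37 genes and 52 sites when only folds of at least 2 times the smallest were kept. RBM39 and HNRNPC were not among these genes, so this alternative does not cover them. Genes listed with sgMETTL1 in both replicates and never with sgNS were 0, and 1 (HNRNPUL2) when every list was cut to an equal number of top-ranked peaks by p. Leaving out each list in turn gave 0 to 1 such genes (HNRNPUL2, RBM6 or RBM48) and 3 to 4 genes with the reverse pattern. HNRNPD, SRSF1 and SRSF12 cannot leave the latter group when a list is left out, so their staying there tests nothing. With folds of at least 2 times the smallest of a list, SRSF1 left it. Counted by site in place of gene, 2 were listed in both replicates of sgMETTL1 and never with sgNS, and 14 had the reverse pattern. Averaging all peaks of a gene turned the sign for RBM24, from 0.60 to -0.38, and for SRSF8, from -0.53 to 0.026. The cause was not tested. The log2 of the listed folds has a median difference over all genes of -0.24 and over all sites of -0.22, and the genes described here had 0.012 and -0.13.

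The replicate number as a block gave 0 called genes and 0 called sites, and a smallest adjusted p of 0.473 for genes. The labels give the guides the same replicate numbers, but the deviations of same-numbered lists correlated by -0.0015 over genes and -0.00089 over sites. The rank scores thus showed no broad effect shared by same-numbered lists. Whether such lists were handled together is not stated, and these correlations cannot tell. The planned search for ACTAAC or ACTAAT in the sites was not run, since no genome sequence was used here. Precision is limited by 2 lists per guide and by the fold step, and read depth is unknown.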
